A study of Mus musculus with 12 samples.

Results

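Genes that mark the mesothelium, the thin sheet of cells that covers the lung and lines the chest wall, were followed in mouse lung after irradiation. The set held Upk3b, Upk1b, Msln, Wt1, Lrrn4, Gpm6a, Nkain4 and Muc16, established mesothelial markers chosen with earlier results of these data known. Their counts beside shares of all genes are therefore a description and no test of the set. Of these 8 genes, 7 had a row in the count tables, out of 23238 gene symbols in all, and Muc16 was not analysed here. The 7 genes passed the filter on low counts, and they are the genes meant below by the mesothelial genes. RNA was sequenced from 12 lung samples in 4 groups of 3. They were unirradiated lung (NoIR) and lung taken 8, 11 and 14 d after irradiation (IR_8d, IR_11d and IR_14d), the irradiated samples cut from irradiated areas only. The radiation dose, strain, age and sex, the region of the unirradiated tissue and whether each sample came from its own animal were not stated in those sources that were used, so p-values measure only the spread between these samples.

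Mesothelial cells secrete the fluid that lets the lung slide in the chest. They keep epithelial features such as keratins and tight junctions although they arise from mesoderm, and in the embryo they give rise to fibroblasts and smooth muscle cells. The transcription factor Wt1 is their classical marker, and mesothelin (Msln) is a lipid-anchored surface protein whose known partner is the mucin encoded by Muc16. Uroplakins (Upk3b, Upk1b) are membrane proteins best known from the lining of the bladder. Gpm6a is a membrane glycoprotein best known from neurons, Nkain4 belongs to a family that binds a subunit of the sodium pump, and Lrrn4 is a membrane protein with leucine-rich repeats.

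Libraries held 19624554 to 27765751 counts, and the 3 groups after irradiation were each shallower than NoIR. Levels are CPM, that is counts divided by scaled library size and set to a common total, errors are SD over 3 libraries unless said otherwise, and changes are log2 with a standard error (SE). Lung markers were present in every library, and no list of lung cell type markers was at 0 in any group. In bulk tissue, fewer mesothelial cells and less of these RNAs per cell cannot be told apart.

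Each of the 7 genes had its highest mean level in NoIR and a lower mean at each later time. Summed over the 7 genes, the level was 387 to 478 CPM in NoIR, 195 to 249 CPM at 8 d, 92.1 to 184 CPM at 11 d and 68.9 to 93.6 CPM at 14 d. Means that fall at every step were found in 13.8% of all genes tested, a description with no test. In the joint edgeR test over the 4 groups all 7 were called, as were 39.2% of all genes. The order of the group means was the same for a surface antigen, a transcription factor and membrane proteins of other families.

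**Figure D1:**
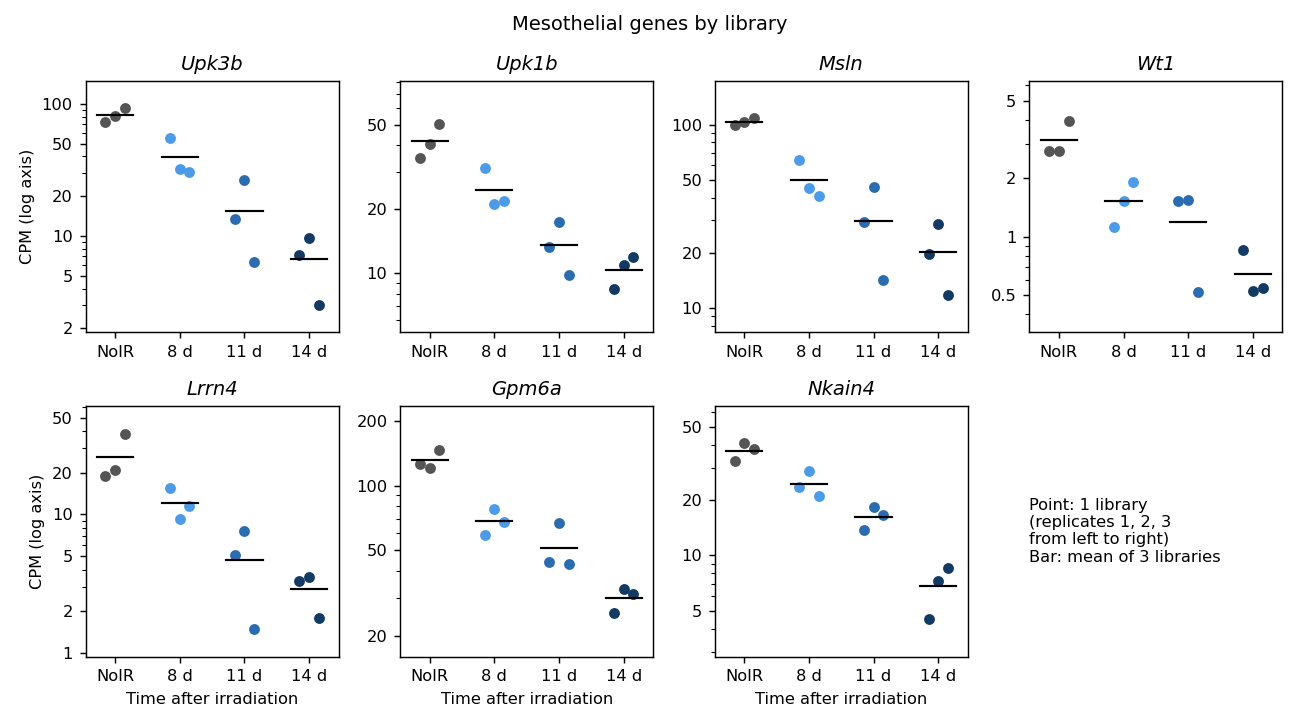
Level of each mesothelial gene in CPM (vertical axis, log scale) in each library (points) of NoIR lung and of lung 8, 11 and 14 d after irradiation, with the mean of 3 libraries (bars). Every NoIR library lies above every irradiated library in all 7 panels, and the group means step down at each time.

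The promoters are shown because the genes fell side by side and 2 transcription factor families, WT1 and TEAD, are known for work in mesothelial cells. RefSeq windows of the GRCm38.p6 build were found for 3 of the 7 genes, 4 windows in all, of 250 bases ending just before the annotated start. They lie at chr5:136038246-136038495 on the plus strand (Upk3b), chr2:132880863-132881112 on the minus strand (Lrrn4), and chr8:54779184-54779433 and chr8:54954478-54954727 on the plus strand (Gpm6a, upstream and downstream start). Both starts of Gpm6a lie before the span of the gene in GENCODE M21 that is given below. Capitals mark GGAATG, a core of sites for the TEAD family, or its reverse complement.
Upk3b: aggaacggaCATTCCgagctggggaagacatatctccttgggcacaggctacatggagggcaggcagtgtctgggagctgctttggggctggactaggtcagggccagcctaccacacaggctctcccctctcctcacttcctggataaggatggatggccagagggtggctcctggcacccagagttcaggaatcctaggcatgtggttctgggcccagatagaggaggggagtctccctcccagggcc
Lrrn4: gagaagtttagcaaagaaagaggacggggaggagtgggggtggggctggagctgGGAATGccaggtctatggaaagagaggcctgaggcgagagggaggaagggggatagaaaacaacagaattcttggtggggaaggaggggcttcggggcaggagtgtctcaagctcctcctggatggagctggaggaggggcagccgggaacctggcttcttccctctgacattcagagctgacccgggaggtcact
Gpm6a, upstream start: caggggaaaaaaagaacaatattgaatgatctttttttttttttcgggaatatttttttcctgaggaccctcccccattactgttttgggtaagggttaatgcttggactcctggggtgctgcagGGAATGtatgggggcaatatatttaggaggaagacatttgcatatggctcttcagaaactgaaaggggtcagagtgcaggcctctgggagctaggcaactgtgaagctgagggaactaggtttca
Gpm6a, downstream start: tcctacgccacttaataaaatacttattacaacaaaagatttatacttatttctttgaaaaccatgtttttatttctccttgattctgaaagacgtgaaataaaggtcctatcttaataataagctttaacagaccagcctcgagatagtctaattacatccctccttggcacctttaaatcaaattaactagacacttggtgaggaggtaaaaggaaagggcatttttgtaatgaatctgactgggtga

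GGAATG, searched on both strands, was in 3 of these 4 windows, against 12.6% of all 32851 windows of the same length. It began 241 bases before the start of Upk3b, 196 bases before that of Lrrn4 and 125 bases before the upstream start of Gpm6a. A core of the WT1 site, GTGGGAG, was in 0 of the 4 windows and in 8.25% of all windows. The 4 windows, from 3 of the 7 genes, are too few for a comparison with these shares, and none was tested. A match describes these letters only, and binding was not measured.

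The uroplakin gene Upk3b (chromosome 5, 136038496 to 136046487, plus strand, mm10) had 72.7, 80.8 and 92.7 CPM in NoIR, 55.2, 32.3 and 30.6 CPM at 8 d, 13.5, 26.5 and 6.33 CPM at 11 d, and 7.24, 9.73 and 3 CPM at 14 d. No 2 groups overlapped except 11 d and 14 d. At 14 d the mean was 6.66 ± 3.4 CPM, against 82 ± 10.1 CPM in NoIR. The change was -3.62 (SE 0.47, edgeR quasi-likelihood test, Benjamini-Hochberg adjusted p = 2.8e-05), which left 8.14% of the unirradiated level.

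Upk1b, a tetraspanin that pairs with another uroplakin in bladder membranes, lies on chromosome 16 from 38773184 to 38800328 on the minus strand. It had 34.9, 40.8 and 50.3 CPM in NoIR, 31.3, 21.1 and 21.8 CPM at 8 d, 13.3, 17.5 and 9.85 CPM at 11 d, and 8.45, 10.9 and 11.9 CPM at 14 d. Only the 11 d and 14 d libraries overlapped. At 14 d it fell by 2.01 on the log2 scale (SE 0.23, edgeR adjusted p = 8.4e-06), and 24.8% of the NoIR level was left.

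Msln, on chromosome 17 from 25748613 to 25754378 on the minus strand, had 99.2, 103 and 108 CPM in NoIR, 63.8, 45.3 and 40.8 CPM at 8 d, 29.5, 45.5 and 14.2 CPM at 11 d, and 19.8, 28.8 and 11.8 CPM at 14 d. The NoIR libraries lay close together and apart from the rest, whereas the 11 d libraries reached both into the 8 d range and into the 14 d range. The change at 14 d was -2.36 (SE 0.36, edgeR adjusted p = 0.00012), with 19.5% left.

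Wt1, on chromosome 2 from 105126529 to 105173616 on the plus strand, was the lowest of the 7 per kilobase in every group. Its CPM were 2.75, 2.77 and 3.94 in NoIR, 1.12, 1.53 and 1.92 at 8 d, 1.52, 1.55 and 0.518 at 11 d, and 0.854, 0.528 and 0.543 at 14 d. These rest on 73 to 109 counts per NoIR library and 13 to 19 counts per 14 d library. NoIR lay apart from the irradiated libraries, and the 11 d libraries overlapped with those of the other irradiated times. At 14 d Wt1 fell by 2.30 on the log2 scale (SE 0.385, edgeR adjusted p = 0.00026), with 20.3% left.

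Lrrn4, on chromosome 2 from 132868305 to 132880891 on the minus strand, had 19.1, 21.1 and 38.2 CPM in NoIR, 15.5, 9.28 and 11.5 CPM at 8 d, 5.11, 7.55 and 1.5 CPM at 11 d, and 3.33, 3.51 and 1.79 CPM at 14 d. Only the 11 d and 14 d libraries overlapped. It had the second largest change of the 7 genes at 14 d, -3.18 (SE 0.45, edgeR adjusted p = 5.7e-05), which left 11.0%.

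Gpm6a, on chromosome 8 from 54954843 to 55060871 on the plus strand, had 126, 121 and 147 CPM in NoIR, 59, 78.2 and 67.6 CPM at 8 d, 44.3, 66.8 and 43.3 CPM at 11 d, and 25.6, 32.9 and 31.4 CPM at 14 d. The 8 d and 11 d libraries overlapped and all other groups lay apart. The change at 14 d was -2.13 (SE 0.18, edgeR adjusted p = 8.8e-07), with 22.8% left. Because Gpm6a is also a neuronal gene, nerve and glia markers were read beside it. Of 7 tested at 14 d, 3 were lower and 1 was higher, and their summed level was 53.4 to 56.6 CPM at 14 d and 108 to 119 CPM in NoIR. Stmn2, a neuronal tubulin regulator, was at 19.3 ± 3.43 CPM at 14 d and at 80.1 ± 3.79 CPM in NoIR. The part of these markers in the Gpm6a result was not tested.

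Nkain4, on chromosome 2 from 180934772 to 180954699 on the minus strand, had 32.7, 40.7 and 37.7 CPM in NoIR, 23.6, 28.6 and 20.9 CPM at 8 d, 13.8, 18.4 and 16.5 CPM at 11 d, and 4.5, 7.28 and 8.56 CPM at 14 d. No 2 of the 4 groups overlapped, which held for no other of the 7 genes. The change at 14 d was -2.45 (SE 0.21, edgeR adjusted p = 1e-06), with 18.3% left. In 55 exon bases it shares its place with the antisense gene Gm14341, and the strand setting of the counting is not given, so reads there cannot be told apart.

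At 8 d, 5 of the 7 genes were lower and none higher, where 10.6% of all tested genes were called lower (edgeR, adjusted p below 0.05). Gpm6a fell by 0.94 (SE 0.175, adjusted p = 0.0014) and Upk1b by 0.76 (SE 0.22, adjusted p = 0.021). Msln was called at -1.05 (adjusted p = 0.039), Nkain4 at -0.61 (adjusted p = 0.04) and Wt1 at -1.04 (adjusted p = 0.046) in the same edgeR test. Lrrn4 at -1.11 (SE 0.40, adjusted p = 0.059) and Upk3b at -1.06 (SE 0.42, adjusted p = 0.085) missed the threshold, although their changes were the largest in size. In all 7 genes the 8 d libraries lay below the NoIR libraries with no overlap, as did 18.5% of all genes. The count at 8 d rested on few libraries: without any 1 of the 6 libraries compared it was 1 to 3, except that the fit without 14 d replicate 1, which is in neither group, also gave 3. With scaling by library size alone it was 2, with no filter 6, and with limma-voom or with only the groups compared 7, Upk3b and Lrrn4 included. With the replicate number as a block it was again 5, with Upk3b called (adjusted p = 0.049) and Wt1 not (adjusted p = 0.07) in edgeR.

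At 11 d all 7 genes were lower than in NoIR in the edgeR test, against 17.8% of all genes, and all 7 lay apart from NoIR, against 26.7%. The changes ran from -1.19 (Nkain4, SE 0.20, adjusted p = 4e-04) to -2.46 (Lrrn4, SE 0.43, adjusted p = 0.00049), with Upk3b at -2.41 (SE 0.44, adjusted p = 0.00073). In 6 of the 7 genes 11 d replicate 3, the shallowest library of the study at 19624554 counts, had the lowest level of its group. Without it the 7 calls stood, with Upk3b at -2.04, Lrrn4 at -2.05, Msln at -1.47 and Wt1 at -1.04. Without 11 d replicate 2, the highest of its group in Upk3b, the change of Upk3b was -3.04.

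At 14 d the 7 genes were again lower, against 18.9% of all genes, and lay apart from NoIR, against 25% of all genes. The median change of the 7 was -1.04 at 8 d, -1.63 at 11 d and -2.36 at 14 d, while the median of all genes was 0.01, -0.01 and 0.01. Each of the 7 was below the 5th percentile of all genes at 11 d (-1.12) and at 14 d (-1.34). At 8 d (-0.85) not all of them were. The 3 comparisons share the NoIR libraries.

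**Figure D2:**
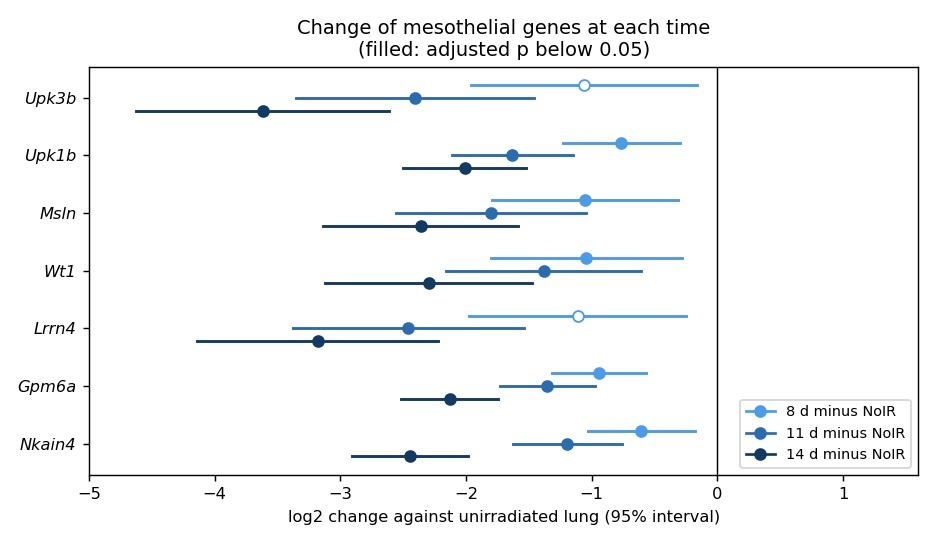
Log2 change of each mesothelial gene 8, 11 and 14 d after irradiation against NoIR lung (points), with 95% intervals (lines), filled where the edgeR adjusted p was below 0.05. Only Upk3b and Lrrn4 at 8 d are open, and the 14 d values lie between -2.01 for Upk1b and -3.62 for Upk3b.

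The irradiated times were also compared with each other, in the same fit to all 12 libraries, so NoIR entered the estimate of the spread. At 14 d all 7 genes were lower than at 8 d, against 7.29% of all genes, and they fell by 1.19 for Gpm6a (adjusted p = 0.00057) to 2.56 for Upk3b (SE 0.455, adjusted p = 0.0018) in the edgeR test. The 14 d libraries lay below the 8 d libraries in all 7 genes, as in 14.9% of all genes. Leaving out 1 library left 5 to 7 of these calls. Wt1 (edgeR adjusted p = 0.047) was not called in 10 of those 12 fits, nor in 4 of 8 alternative settings. Msln was not called in 3 of the 12 fits.

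The shorter intervals gave fewer calls. Between 11 d and 8 d none of the 7 passed the edgeR test, against 0.394% of all genes called lower. All 7 estimates were negative, where the median of all genes was -0.01, and 6 of 7 had an unadjusted p below 0.05. Msln, the last of those 6 (edgeR unadjusted p = 0.049), ranked 2583 of 16484 genes by p, so many other genes passed that cut too. The adjusted p ran from 0.06 for Upk1b to 0.72 for Wt1. DESeq2 called 1 of the 7, Upk1b, and limma-voom called 0. The 11 d libraries lay below the 8 d libraries without overlap in 4 genes (Upk3b, Upk1b, Lrrn4 and Nkain4), against 8.72% of all genes.

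Between 14 d and 11 d, Nkain4 (-1.25, SE 0.21, edgeR adjusted p = 0.012) and Gpm6a (-0.78, SE 0.18, edgeR adjusted p = 0.041) were lower, 2 of 7 against 0.983% of all genes. These 2 were also the genes whose 14 d libraries lay apart below the 11 d libraries, as did 11.7% of all genes. No call was left without 11 d replicate 2, without 11 d replicate 3 or without 14 d replicate 1. Gpm6a was lost in 8 of the 12 fits with 1 library left out and in 2 of 8 alternative settings. Among those fits were the ones without NoIR replicate 1, NoIR replicate 2 or 8 d replicate 3, which are in neither group. For the remaining 5 the adjusted p was 0.19 to 0.46.

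The share of the 14 d log2 loss reached by 8 d is given as a description, since no test compared the genes. By 8 d Wt1 had 45.3% of its 14 d log2 loss, Msln 44.6% and Gpm6a 44.3%. Upk1b had 38%, Lrrn4 35% and Upk3b 29.3% of it, and Nkain4 had 24.8%. A direct edgeR contrast of the step from 11 d to 14 d against the step from 8 d to 11 d called none of the 7, against 0.121% of all genes, and none had an unadjusted p below 0.05. The intervals were wide, from -1.42 to 0.09 for Nkain4 and from -1.48 to 1.75 for Upk3b, so the steps are not shown to be even.

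Per kilobase of exon model, Gpm6a was highest in NoIR at 40.7 ± 4.32 CPM per kb, followed by Msln at 33.9 ± 1.51, Nkain4 at 29.9 ± 3.29, Upk3b at 23.2 ± 2.86 and Upk1b at 20.1 ± 3.71. Lrrn4 had 7.03 ± 2.83 and Wt1 0.508 ± 0.11 CPM per kb. The libraries of neighbours in that order overlapped for Msln and Nkain4 and for Upk3b and Upk1b. At 14 d the order was Gpm6a at 9.33 ± 1.19, Msln at 6.56 ± 2.78, Nkain4 at 5.47 ± 1.68, Upk1b at 4.98 ± 0.847, Upk3b at 1.89 ± 0.963, Lrrn4 at 0.775 ± 0.253 and Wt1 at 0.104 ± 0.0297 CPM per kb. At 14 d Gpm6a, Msln, Nkain4 and Upk1b overlapped from neighbour to neighbour, Upk3b overlapped with Lrrn4, and Upk1b lay above Upk3b without overlap.

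Ratios of counts within a library, which no library scaling can move, showed how unequal the losses were. Upk3b over Upk1b was 2.08, 1.98 and 1.84 in NoIR, 1.76, 1.53 and 1.4 at 8 d, 1.02, 1.51 and 0.642 at 11 d, and 0.856, 0.896 and 0.253 at 14 d. The mean ratio was 0.668 at 14 d and 1.97 in NoIR, and the libraries did not overlap. Upk3b over Gpm6a had means of 0.225 at 14 d and 0.625 in NoIR, also without overlap. Msln over Gpm6a, at 0.675 at 14 d and 0.793 in NoIR, did overlap, although its 3 libraries at 11 d (mean 0.559) all lay below NoIR. Of the 21 pairs of genes, 10 did not overlap between 14 d and NoIR, and these took in 5 of the 6 pairs with Upk3b and 4 of the 6 with Lrrn4. These are descriptions of pairs that share genes. No share of non-overlapping ratios over all gene pairs was computed, so the count cannot be called particular to these genes. An exact permutation test of 3 against 3 libraries cannot give a p below 0.1.

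**Figure D3:**
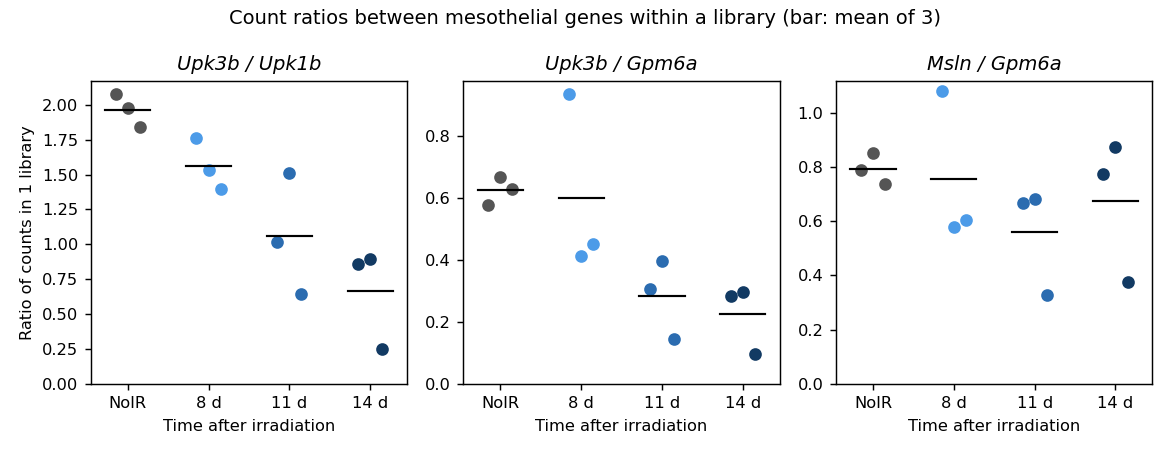
Ratio of counts between pairs of mesothelial genes within each library (points) and the mean of 3 libraries (bars) for NoIR lung and 8, 11 and 14 d after irradiation. Upk3b over Upk1b steps down at each time to a mean of 0.668 at 14 d, while Msln over Gpm6a lies below NoIR at 11 d and overlaps with it at 8 d and 14 d.

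Within groups, too, most pairs of these genes varied in the same direction, but the spread between libraries was widest at 11 d. Across the 12 libraries, after the group means were subtracted from log2(CPM + 1), 17 of the 21 pairs had a positive correlation, with a median of 0.44 and a range from -0.28 to 0.99. Upk3b and Msln had 0.99, Upk3b and Lrrn4 0.88, and Nkain4 and Gpm6a 0.6. Nkain4 stood apart from Upk3b (-0.1) and from Wt1 (-0.28). The values share library depth and the tissue taken, and carry no p. The mean log2(CPM + 1) of the mesothelial genes had an SD of 0.542 at 11 d, against 0.143 to 0.221 in the other groups. Its deviation from the group mean was 0.521 in 11 d replicate 2 and -0.561 in 11 d replicate 3, the largest in size of all libraries. How far the correlations rest on these libraries was not tested, and no share over all gene pairs was computed.

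The genes most like the 7 in pattern were ranked by the correlation of log2(CPM + 1) with the mean of the 7 over the 12 libraries, among 13748 genes. The first 10 were Cldn15 (0.988), Aldh1a2 (0.988), Slurp1 (0.987), Rspo1 (0.985), Sbsn (0.976), Chst4 (0.976), Rnf167 (0.968), C2 (0.961), Igfbp6 (0.961) and Tmem44 (0.961). After the group means were subtracted, which leaves only differences between libraries of one group, the first were Aldh1a2 (0.971), Cldn15 (0.961), Chst4 (0.945), Tmem44 (0.922), Slurp1 (0.921) and Rspo1 (0.92). Those 6 were in the first 10 by both measures. The remaining 4 by the second measure, Prr15, Tmem151a, Sfmbt2 and Slc35e2, included 2 not called at 14 d in edgeR, Prr15 (-0.36) and Slc35e2 (0.15).

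These genes were chosen for a pattern that falls over the groups, so a fall at 14 d follows from the choice, and their changes are a description. At 14 d against NoIR the edgeR change was -3.74 for Slurp1, -3.42 for Chst4, a sulfotransferase, and -3.37 for Igfbp6, which binds insulin-like growth factors. Rnf167, a ubiquitin ligase, had a smaller change of -0.98 (SE 0.12) although its correlation was 0.968.

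A second list of 16 genes associated with mesothelium was read for comparison, all of them tested. Of these, 4 were lower and 3 higher at 8 d, 6 lower and 5 higher at 11 d, and 7 lower and 4 higher at 14 d (edgeR), with a median of -0.29 at 14 d. Of all genes, 23.6% were called in either direction at 8 d, 37.2% were at 11 d and 38.9% were at 14 d. The genes lower at 14 d included the transcription factor Bnc1 (0.715 ± 0.234 CPM at 14 d, against 6.33 ± 2.05 CPM in NoIR), the tight junction gene Cldn15 (1.19 ± 0.741 against 8.88 ± 1.59 CPM), the Wnt co-ligand Rspo1 (6.92 ± 2.81 against 50.3 ± 9.42 CPM) and the retinoic acid enzyme Aldh1a2 (9.76 ± 1.87 against 52.3 ± 13.4 CPM). Their changes ran from -2.42 for Aldh1a2 to -3.12 for Bnc1, within the range of the 7 genes. Pkhd1l1 (-2.36), Cdh2 (-1.20) and Krt19 (-0.56) were lower as well.

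The genes that were higher at 14 d were Tgm1, a crosslinking enzyme of epithelia (10.4 ± 1.88 CPM at 14 d, against 2.11 ± 0.602 CPM in NoIR), the keratins Krt18 (0.60) and Krt8 (0.43, edgeR adjusted p = 0.048), and Calb2. Calb2, the calcium-binding protein calretinin, had 39 counts in the 3 libraries at 14 d and 1 count in those of NoIR. Ezr, Krt7, Pdpn, Dmkn and Ildr2 were not called. Keratins, Pdpn and Ezr are also made by lung epithelium, whose part in these values was not tested.

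**Figure D4:**
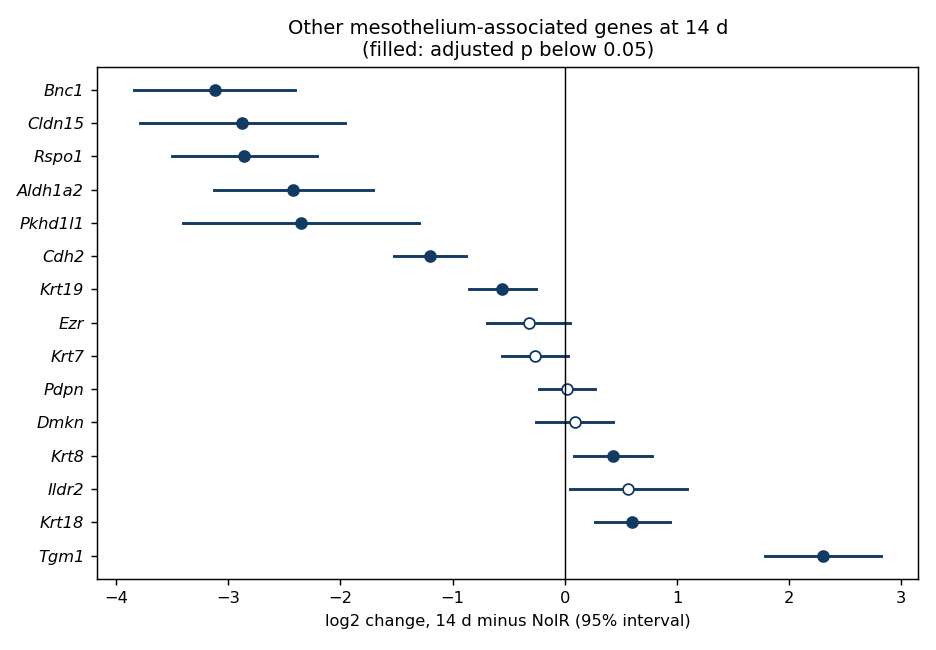
Log2 change at 14 d against NoIR lung (points) with 95% intervals (lines) of 15 of the 16 further mesothelium-associated genes, filled where the edgeR adjusted p was below 0.05. Calb2, higher but with 1 count in NoIR, is not drawn. Bnc1, Cldn15, Rspo1, Aldh1a2 and Pkhd1l1 lie between -3.12 and -2.36, and Tgm1 lies at 2.30.

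Markers of other lung cell types were read at 14 d, when 18.9% of all genes were called lower and 38.9% in either direction. There 10 of 10 endothelial genes were lower (median -2.21), 9 of 9 of alveolar type 1 cells (-1.29), 8 of 10 of alveolar fibroblasts (-1.26), 5 of 8 of alveolar type 2 cells (-0.74), 4 of 7 of club and secretory cells (-1.92) and 3 of 9 of adventitial and submesothelial fibroblasts (-0.48). Of 7 ciliated airway genes 1 was lower and none higher (median -0.35). Of 4 adipocyte genes tested 3 were lower (median -3.57), and the list summed to 1.3 to 4.45 CPM at 14 d and 28 to 64.8 CPM in NoIR. Cidec alone was at 25.2 ± 1.88 CPM in NoIR, where Cfd ran from 1.09 to 29.5 CPM between libraries. Of 8 leukocyte genes 7 were higher, with a sum of 18200 to 23300 CPM at 14 d against 7800 to 8660 CPM in NoIR. A single gene, at 18700 ± 2630 CPM at 14 d and 7920 ± 414 CPM in NoIR, made up most of that sum. The median of the 7 mesothelial genes, -2.36, was thus near that of endothelium and less far down than that of the adipocyte genes. No difference between lists was tested. The cardiac muscle list summed to 44.7 to 120 CPM in NoIR and 34.8 to 227 CPM at 8 d. At 14 d it summed to 13.9 to 39.3 CPM, with 1 of 6 genes tested lower (median -1.68). Of 6 skeletal muscle genes 1 was lower and 1 higher at 14 d. Of 6 thymocyte and lymph node genes 1 was lower and 2 were higher. The tissue taken, the share of leukocyte RNA and their part in the mesothelial values were not tested.

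**Figure D5:**
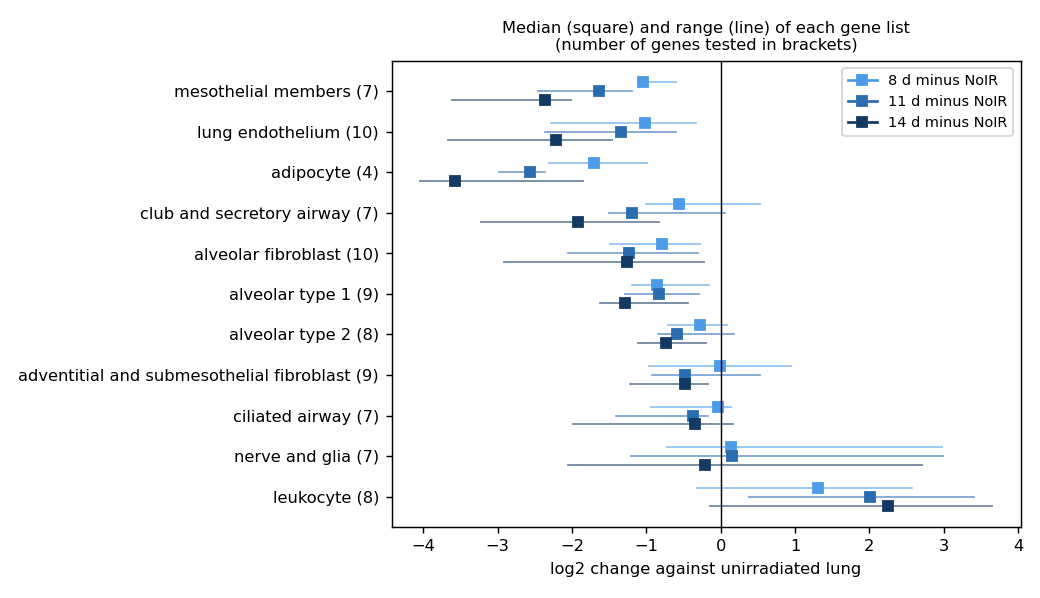
Median (squares) and range (lines) of the log2 change of each gene list 8, 11 and 14 d after irradiation against NoIR lung, with the number of genes tested in brackets and the mesothelial genes in the top row. At 14 d the medians are -2.36 for the mesothelial genes, -2.21 for endothelium, -3.57 for adipocytes and 2.25 for leukocytes.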

How the data were processed

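The values were the deposited raw counts per gene symbol from 12 libraries. Per the submitters' processing notes, the authors aligned reads with TopHat to mm10. The sources used here do not give the version, the counting program, the annotation or the strand setting. Per the labels' protocols, Trizol RNA went into NEBNext Ultra II Directional libraries. Symbols on several lines (35 symbols, 79 lines) were summed. Groups were compared with the edgeR 4.0.16 quasi-likelihood F test in R 4.3.3, on all 12 libraries with TMM scaling and the default filter, which kept 16484 genes and removed 6754. Adjustment over these genes was Benjamini-Hochberg and the threshold 0.05. The test was checked on simulated counts. SE was taken as the size of the log2 change over the root of F.

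The settings varied were scaling (median of ratios, or library size alone), removal of Rn45s and haemoglobin genes, no filter, DESeq2 1.42.0, limma-voom (limma 3.58.1), only the groups compared, a replicate block, each library left out, and a pseudocount of 0.1 in place of 1. No 2 libraries of a group agreed within sampling noise (chi-square per degree of freedom 26 or more). The mesothelial genes and the marker lists were chosen with earlier results of these data known. Any gene of the second mesothelium-associated list, and of the other lists up to 4 genes with the lowest p over all groups, may be named, and the like genes are the first 10 by each measure, with a mean of at least 1 CPM, without immune receptor segments and unnamed loci. Gene coordinates and exon lengths are from GENCODE M21, promoters from RefSeq GRCm38.p6. Same-numbered libraries of 8 d and NoIR correlated in their deviations from the group means (0.192, 0.148 and 0.162), a pairing that comes from the data only, so the block result stands beside that comparison. Intervals cover only the spread between libraries.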

Additional observations from a re-analysis of the deposited data

Results flagged for a closer look

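The effect of irradiation against NoIR differed between times in 9 tested comparisons of mesothelial genes, each tested directly between the irradiated groups with edgeR. For 14 d minus 8 d the log2 differences were -2.56 for Upk3b, -2.07 for Lrrn4, -1.84 for Nkain4, -1.31 for Msln, -1.26 for Wt1, -1.25 for Upk1b and -1.19 for Gpm6a. For 14 d minus 11 d they were -1.25 for Nkain4 and -0.78 for Gpm6a. Each was lower at the later time. Of 12 fits with 1 library left out, the call for 14 d minus 8 d was lost in 10 for Wt1 and in 3 for Msln. For 14 d minus 11 d it was lost in 8 for Gpm6a and in 3 for Nkain4. With groups of 3, no library was tested as an outlier.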

How the results depend on the processing

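The 7 calls at 11 d and at 14 d against NoIR, and the joint call over the 4 groups, stood under every alternative run, and the uneven step stayed at 0 of 7. At 8 d against NoIR 5 genes were called, against 2 with library size alone, 7 with limma-voom or only the groups compared, 6 with no filter and 1 to 6 with 1 library left out. Between 11 d and 8 d 0 were called, against 1 with library size alone, 1 with no filter, 1 with DESeq2 and 0 to 2 with 1 library left out. Between 14 d and 11 d 2 were called, against 1 with library size alone, 1 with only the groups compared and 0 to 2 with 1 library left out. Between 14 d and 8 d the range was 5 to 7. The change of Wt1 between 11 d and 8 d turned to 0.004 without 11 d replicate 3, the highest of a range that began at -0.554. The mean log2 level at 14 d was 2.70 with the smaller pseudocount, against 3.02. The causes were not tested.

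Over all groups same-numbered libraries did not vary together: of 18 pairs 6 correlated over 0.1 (range -0.479 to 0.401), among them the 3 pairs of 8 d and NoIR, and 5 of 12 libraries correlated best with their own number. With the replicate block 5 genes were called at 8 d and 6 for 14 d minus 8 d. Over all genes, 353 were called between 11 d and 8 d, against 852 by DESeq2, 143 with only the groups compared and 2 to 545 with 1 library left out. Between 14 d and 11 d these were 296, against 821 by DESeq2 and 13 to 681. For the uneven step they were 20, against 82 by DESeq2, 8 with the block and 2 to 28. With 1 library left out, 2593 to 3997 were called at 8 d and 1392 to 2599 for 14 d minus 8 d. Scaling by library size alone put the median of all genes between 11 d and 8 d at -0.10, and 39.4% of calls were then lower, against 18.4%. Wt1 had 13 to 19 counts per 14 d library, the fewest of the 7 genes.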

Other observations

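Genes tied to the change of mesothelial cells into mesenchymal ones, and to mesenchymal cells in general, moved in both directions at 14 d. Of 12 tested, 3 were lower and 5 higher than in NoIR (edgeR), with a median of 0.11, where 18.9% of all genes were lower and 38.9% were called in either direction. Fibronectin (Fn1) was at 1770 ± 530 CPM at 14 d, against 269 ± 67.4 CPM in NoIR, a change of 2.72. The collagen gene Col1a1 (1.53) was higher, whereas the transcription factor gene Zeb1 was at 70.4 ± 6.97 CPM at 14 d, against 184 ± 20.6 CPM in NoIR, a change of -1.39. Which cells held these RNAs was not measured.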
